A study of Mus musculus and Homo sapiens with 12 samples.

Results

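Autosomal SIRT7 peaks of wild-type mouse embryonic fibroblasts (MEFs) were followed from the centromere end of each chromosome to its far end. The protein was located with ChIP-seq, in which an antibody pulls down the DNA bound by a protein and peaks are called where the sequenced reads pile up. The members were all peaks on chromosomes 1 to 19 of the deposited MEF list, 65422 of the 72622 peaks in that list and of the 116941 in both lists of the series. The MEFs were of the 129s2 strain, came from embryos of day 14.5, were wild type, and were used at passages 2 to 3 with no treatment named. The whole series held 12 samples in 7 groups. The others, not used here, were K562 SIRT7 ChIP, inputs, and H3K18Ac ChIP of K562 cells and of wild-type and SirT7 knockout MEFs. The wild-type MEF SIRT7 ChIP group had 2 samples and 1 peak list, which is recorded under replicate 1. No difference below therefore has a replicate check or a p-value. The labels name no SIRT7 ChIP in SirT7-/- cells, which would measure peaks that do not depend on the protein. A peak list measures no expression, so the labelled cell type could not be checked against markers. Read depth is unknown from the list.

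SIRT7 is a nuclear sirtuin, an NAD-dependent enzyme that removes acyl groups, among them the one that H3K18Ac names, an acetylated lysine of histone H3. The study's title links it to LINE-1 (L1) retrotransposons and to the nuclear lamina, the protein mesh under the nuclear envelope. Lamina-bound chromatin is in general poor in active genes and rich in L1 sequence. Mouse autosomes are telocentric, with the centromere at the start of the reference sequence, so position along the sequence runs from the centromere (proximal) to the far telomere (distal).

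SIRT7 peaks were found along all 19 autosomes, but unevenly. Each autosome was divided into windows of 5 Mb counted from base 0 of build mm9, and a peak was assigned to the window of its midpoint. The first window of each autosome is incomplete, since the first peak lay between 3.00 and 3.08 Mb on every one, and the last is cut by the chromosome's end. The remaining 467 windows, from 11 on chromosome 19 to 38 on chromosome 1, held 63099 peaks (96.4%). A window held 135 ± 52.1 peaks (SD over windows), with a median of 136 and a range of 0 to 259. The variance of this number was 20.1 times its mean, where independent peaks in equal windows would give about 1. Counting intervals below take peaks as independent and are therefore too narrow. Intervals of medians rest on the same assumption. An SD over windows or autosomes is given beside many densities. The ratios by width and score class, and those of some single autosomes, have only the counting interval.

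The share of bases under a peak followed the number of peaks more closely than their width did. Peaks covered 5.02% ± 2.14 of a window (SD), from 0 to 10.1%. Median peak width varied less, at 977 ± 159 bp (mean and SD over the 466 windows that held a peak), with a range of 653 to 2093 bp. Of these windows, 403 (86.5%) had a median between 800 and 1200 bp. The coefficient of variation was 38.6% for number, 42.6% for coverage and 16.2% for median width. Across the windows Spearman's rho was 0.973 between number and coverage, 0.460 between number and median width, and 0.039 between number and the median of the authors' score. These correlations describe windows of 1 library that share its depth, and coverage is built from number and width. The score is the one in the authors' list, at least 50 on the autosomes. It is taken here as a rating of a peak and not as its height above background.

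**Figure D1:**
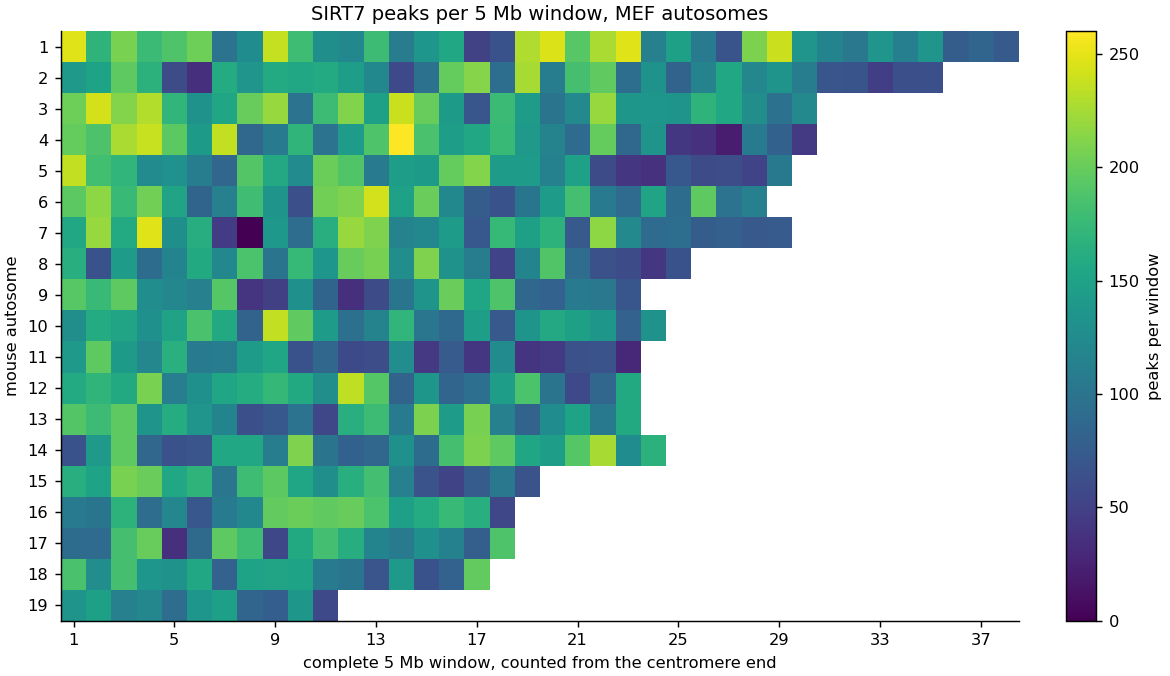
Number of SIRT7 peaks in each complete 5 Mb window, with 1 row per mouse autosome and windows in order from the centromere end (left) to the far end (right). Dark windows, of few peaks, gather at the right of chromosomes 2, 4, 5, 7, 8, 11 and 15, and 1 window of chromosome 7 is at 0.

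The densest windows were set in the proximal and middle parts of chromosomes and many of the sparsest in the distal part. The most peaks were found at 70 to 75 Mb of chromosome 4, with 259 peaks and 10.1% of bases covered. Chromosome 1 followed with 247 peaks each at 5 to 10 Mb and at 115 to 120 Mb, where 9.06% and 8.97% of bases were covered. By coverage the next after chromosome 4 were 20 to 25 Mb of chromosome 3 (9.76%, 230 peaks) and 10 to 15 Mb of chromosome 7 (9.54%, 220 peaks). At the other extreme, 40 to 45 Mb of chromosome 7 held no peak. It lay inside a peak-free stretch of 7.02 Mb, and unsequenced bases were not separated from sequenced ones here, so this 0 is no measure of SIRT7. Next came 135 to 140 Mb of chromosome 4 with 21 peaks (0.635% covered) and 115 to 120 Mb of chromosome 11 with 30 peaks (1.10%). The window at 150 to 155 Mb of chromosome 4 came next in coverage, with 0.805% under 44 peaks.

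To compare the ends, the complete windows of each autosome were divided into a proximal part, a middle part and a distal part. The outer parts each took the number of windows divided by 3 and rounded down, 148 windows per side over all autosomes. Of the 51 sparsest windows, those with at most 65 peaks, 8 were proximal, 16 middle and 27 distal. Of the 47 densest, with 203 peaks or more, 19 were proximal, 21 middle and 7 distal. Chromosome 11 alone held 9 of the sparsest windows, and chromosomes 2 and 5 held 6 each. Chromosome 1 held 10 of the densest and chromosome 3 held 8. The sparsest windows also had narrower peaks, with a median of 831 bp (95% order-statistic interval 811 to 853) against 1049 bp (1024 to 1075) in the densest.

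SIRT7 peaks thinned out from the centromere end to the far end. Over all autosomes the proximal part had 30.2 ± 9.51 peaks per Mb (SD over 148 windows), the middle part 28.4 ± 10.4 and the distal part 22.3 ± 9.75. The distal to proximal ratio was 0.739 (95% exact conditional interval for counting error 0.725 to 0.754). The difference of the pooled means was thus smaller than 1 SD over windows in either part. The distal density was the lower on 16 of 19 autosomes and the higher on chromosomes 14, 16 and 17. The ranges of proximal and distal windows overlapped on 18 of 19. In either direction, the 2 densities differed by more than the larger SD over windows on only 6 autosomes. They differed by more than the sum of both SDs on 3. Over the 19 autosomes the ratio had a median of 0.717 and a range of 0.419 to 1.52. The distal part was the sparsest of the 3 parts on 14 autosomes, the proximal part was the densest on 11, and the middle part was the densest on 7.

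**Figure D2:**
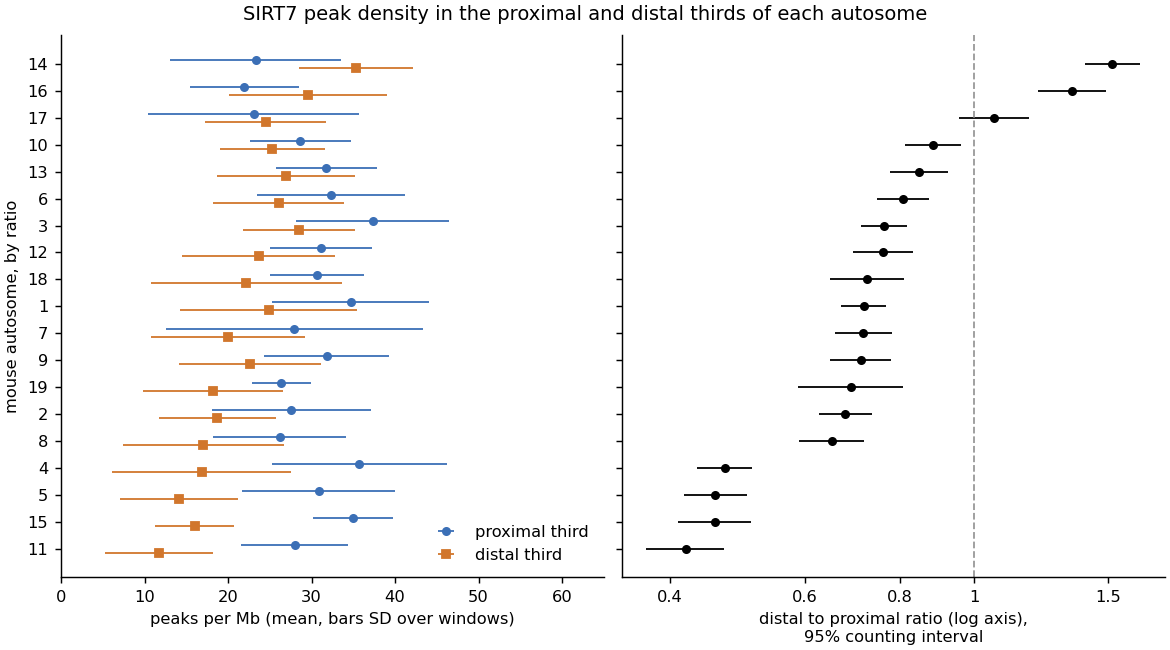
Left: SIRT7 peaks per Mb in the proximal (circles) and distal (squares) complete windows of each autosome, as the mean with the SD over windows. Right: the distal to proximal ratio with its 95% counting interval on a log axis. Ratios run from 0.419 on chromosome 11 to 1.52 on chromosome 14, and the dashed line marks 1.

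The fall was steepest on chromosomes 11, 15, 5 and 4. On chromosome 11 the 7 proximal windows held 106 to 196 peaks and the 7 distal windows 30 to 125, or 27.97 ± 6.44 and 11.7 ± 6.45 per Mb, which gives a ratio of 0.419 (0.372 to 0.470). On chromosome 15 the 6 proximal windows held 151 to 208 and the 6 distal windows 53 to 113, with no overlap, or 34.97 ± 4.78 and 16 ± 4.69 per Mb, which gives 0.458 (0.410 to 0.510). On chromosome 5 the 9 proximal windows held 86 to 236 and the 9 distal windows 37 to 149, a ratio of 0.458 (0.417 to 0.504). Their ranges overlapped. Chromosome 4 fell from 35.7 ± 10.5 to 16.9 ± 10.7 per Mb, a ratio of 0.472 (0.434 to 0.512). Spearman's rho between the number of peaks and window order was -0.74 on chromosome 11 (23 windows), -0.68 on chromosome 4 (30), -0.66 on chromosome 15 (19) and -0.60 on chromosome 5 (29). Over all autosomes it was negative on 16, with a median of -0.38.

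On these chromosomes much of the variance between windows lay across 1 boundary. They were named for a fall in the same window counts, so a large share was partly built in. For each autosome the boundary was sought that left the 2 most different runs of windows, with at least 3 windows a side, a description that finds some boundary on every chromosome. On chromosome 15 it lay at 70 Mb. The 13 windows before it held 166 ± 29.1 peaks (102 to 208) and the 6 after it 80 ± 23.4 (53 to 113). This boundary took up 70% of the variance between windows. On chromosome 11 it lay at 50 Mb, with 142 ± 28.2 before and 66.1 ± 29.7 after (63.7% of the variance). On chromosome 5 it lay at 110 Mb, with 155 ± 39.3 before and 60.9 ± 21.1 after (60.3%). On chromosome 4 it lay at 115 Mb, with 168 ± 49.4 before and 69.1 ± 39.4 after (47.8%). Chromosome 2 had its boundary at 155 Mb, and only 27.2% of the variance lay there. The 5 windows beyond held 48 to 70 peaks. The 30 windows before held 137 ± 46.7, from 35 (at 30 to 35 Mb) to 226.

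Most autosomes lacked so clear a boundary, and neighbouring windows could differ as much as the ends did. On chromosome 17 the boundary took up 5.00% of the variance. Over 448 pairs of neighbouring windows the median change was 37.5 peaks, and its upper 10% began at 99.3. The largest changes were 164 peaks, a rise from 65 to 229 at 95 Mb of chromosome 1 and a fall from 200 to 36 at 25 Mb of chromosome 17. Chromosome 10 rose from 83 to 236 at 45 Mb, and chromosome 9 fell from 191 to 40 at 40 Mb. Chromosome 9 was sparsest in its middle part, with 18.5 ± 11 per Mb against 31.8 ± 7.46 proximally and 22.6 ± 8.48 distally. Its sparsest window, 60 to 65 Mb, held 35 peaks.

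Chromosomes 14 and 16 ran the other way. On chromosome 14 the 8 proximal windows held 65 to 196 peaks and the 8 distal windows 126 to 226, or 23.3 ± 10.3 and 35.4 ± 6.82 per Mb, which gives a ratio of 1.52 (1.4 to 1.65). Its best boundary lay at 80 Mb, with 116 ± 46.6 peaks per window before and 177 ± 32.0 after. Its densest window was 110 to 115 Mb with 226 peaks and its sparsest were 5 to 10 Mb and 25 to 30 Mb with 65 each. On chromosome 16 the 6 proximal windows held 71 to 168 and the 6 distal windows 55 to 186, or 21.97 ± 6.55 and 29.5 ± 9.46 per Mb, which gives a ratio of 1.34 (1.21 to 1.49). The middle part of chromosome 16 was denser than both, with 34.1 ± 8.91 per Mb, and its last complete window, 90 to 95 Mb, was its sparsest. The ranges of both chromosomes overlapped between the ends. On chromosome 17 the ratio was 1.06 (0.956 to 1.18). It turned to 0.843 with windows of 10 Mb and 0.905 with the 4 outermost windows a side, so no direction is given for it.

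Among the falling autosomes, 2 depended on how the list was filtered or the chromosome divided. The ratio on chromosome 7, 0.716 (0.657 to 0.781), became 1.06 when only peaks with a score at or above the median of the MEF list were kept. Its proximal peaks had a median score of 110 and its distal peaks 156. Without the windows that touch a stretch of 2 Mb or more with no peak, which on this chromosome is proximal, the ratio was 0.560. The ratio on chromosome 13, 0.848 (0.777 to 0.926), became 1.13 when the chromosome was divided once, in the middle. The sparse windows at 40 to 60 Mb (63, 72, 99 and 55 peaks) then counted as proximal.

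Aligning the autosomes by their ends showed where the difference lay. From the centromere end, the first 4 complete windows held means of 163 ± 46.7, 162 ± 44.6, 178 ± 28.7 and 160 ± 52 peaks (SD over 19 autosomes). The fifth held 129 ± 42.8. From the far end inward the first 5 held 102 ± 51.7, 90.9 ± 29.3, 106 ± 51.2, 102 ± 46.2 and 107 ± 44.6. The window just inside the last one, the second from the far end, held from 41 to 163 peaks on the 19 autosomes, and the third from the centromere held from 113 to 227, so that these ranges still overlapped. Covered bases went from 6.81% ± 1.04 in the latter to 3.19% ± 1.20 in the former.

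**Figure D3:**
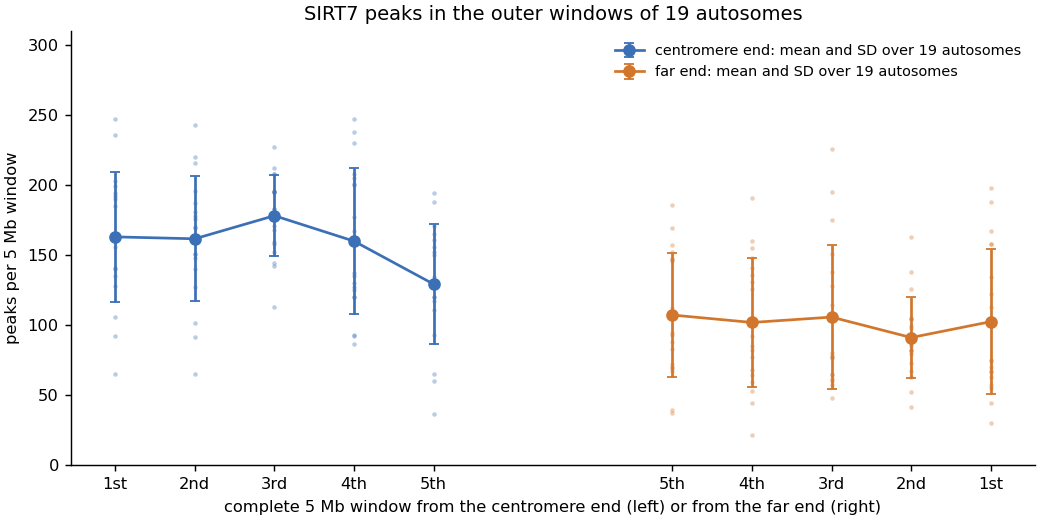
SIRT7 peaks in the 5 outermost complete 5 Mb windows at each end. Small points are single autosomes, and large points with bars are the mean and SD over 19 autosomes. Means lie at 129 to 178 peaks at the centromere end and at 90.9 to 107 at the far end.

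At the very tip of the far end the density turned up again. This was seen after the windows were counted, in the incomplete last windows, and was then measured from the outermost peak of each autosome, which was itself not counted. The outer 1 Mb held 36.2 ± 19.5 peaks (SD over 19 autosomes, range 6 to 74), and the 4 Mb beside it held 19.4 ± 10.1 per Mb (at most 40). The pooled ratio was 1.86 (1.70 to 2.04). The outer 1 Mb was the denser on 18 of 19 autosomes. The exception was chromosome 7, with 6 peaks against 15.3 per Mb. The margin was small on chromosome 15 (12 against 10.75 per Mb) and on chromosome 6 (25 against 21.25). On chromosome 8 there were 50 peaks in the outer 1 Mb against 11 per Mb beside it, on chromosome 5 there were 33 against 11.5, on chromosome 11 there were 17 against 25 in the whole 4 Mb beside it, and on chromosome 18 there were 74 against 40. In steps of 0.5 Mb from the tip the mean density was 45.6 ± 23.9, 26.8 ± 17.6, 29.2 ± 17.5 and 19.2 ± 14.0 per Mb, and it was 15.6 to 20.5 per Mb in the 6 steps beyond. The coverage of the outer 1 Mb was 6.37% against 3.36% beside it.

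The centromere end, measured in the same way from its outermost peak, showed no such turn. Its outer 1 Mb held 33.8 ± 11.5 peaks (9 to 51) and the 4 Mb beside it 32.6 ± 12.5 per Mb (7 to 49), a pooled ratio of 1.04 (0.95 to 1.13). It was the denser on 12 autosomes and the sparser on 7. The lowest was chromosome 14 with 9 peaks in its outer 1 Mb and 7 per Mb beside it, where a peak-free stretch of 1.41 Mb ran from 3918867 to 5333626. On the far tips peak width was 968 bp (905 to 1071) in the outer 1 Mb and 932 bp (879 to 999) beside it, with overlapping intervals. The authors' score was lower in the outer 1 Mb, with a median of 129 (120 to 138) against 150 (139 to 161).

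**Figure D4:**
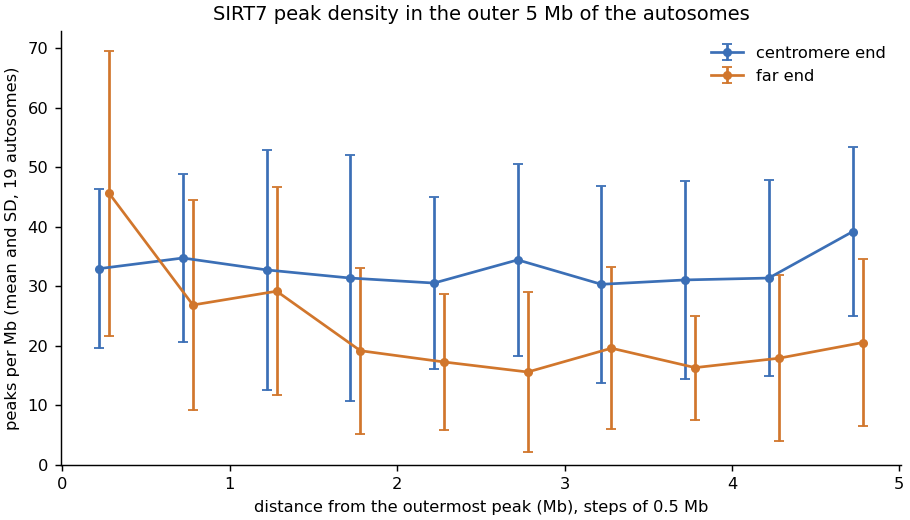
SIRT7 peaks per Mb in steps of 0.5 Mb from the outermost peak at the centromere end and at the far end, as the mean and SD over 19 autosomes. The far end begins at 45.6 per Mb and lies at 15.6 to 20.5 beyond 2 Mb, while the centromere end lies between 30.3 and 39.2 throughout.

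Coverage repeated the fall in number. It went from 5.65% ± 2.02 of bases in the proximal windows to 4.05% ± 1.93 in the distal windows (SD over 148 windows each), a difference of -1.60 percentage points. Distal coverage was lower on 17 autosomes, counting chromosome 17 with a difference of only -0.0054 percentage points. The differences were widest on chromosome 4 (6.78% to 2.92%), chromosome 15 (6.19% to 2.90%) and chromosome 5 (5.70% to 2.51%). They ran the other way on chromosome 14 (4.47% to 6.37%) and chromosome 16 (4.0% to 5.75%), and chromosome 17 had 4.11% at both ends.

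Peak width changed far less than peak number. The median was 984 bp (95% interval 970 to 998) proximally, 993 bp in the middle and 942 bp (928 to 959) distally. The distal median was lower on 13 autosomes and higher on 6. With chromosomes divided once in the middle it was lower on 10 of 19, and the pooled difference went from -42.5 to -14 bp. On chromosome 8 it fell from 1062 bp (984 to 1153) to 836 bp (797 to 886), and rho between window width and order was -0.73 over 25 windows. On chromosome 7 it fell from 1157 bp (1071 to 1220) to 981 bp (926 to 1059), and on chromosome 11 from 955 bp (888 to 1004) to 864 bp (792 to 936). The largest increase was on chromosome 2, from 926 bp (888 to 979) to 1021 bp (936 to 1108), with overlapping intervals. It was followed by chromosome 9 (949 to 993 bp) and chromosome 10 (958 to 994 bp).

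The fall was somewhat larger for wider peaks, except the very widest. Full-length L1 elements are several kb long, and a class of peaks within 0.5 kb of 5.75 kb was set near that length. The distal to proximal ratio was 0.775 (0.746 to 0.804) for peaks under 700 bp, 0.747 (0.715 to 0.780) at 700 to 1000 bp and 0.737 (0.705 to 0.769) at 1 to 2 kb. It was 0.693 (0.656 to 0.731) from 2 kb up to the 5.75 kb class and 0.664 (0.623 to 0.707) in that class, where distal density was lower on 17 autosomes. Peaks wider than that class were few, 422 proximally and 396 distally, with a ratio of 0.938 (0.816 to 1.08) and no common direction, since 8 autosomes were lower distally, 10 higher and 1 equal. The share of peaks in the 5.75 kb class went from 10.8% proximally to 9.68% distally, so the classes differed little beside the fall that all of them but the widest showed. These classes were set with the width distribution known.

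Peaks of low score thinned out more than peaks of high score. By quartile of the autosomal scores, the distal to proximal ratio rose from 0.677 (0.651 to 0.705) for the lowest to 0.711 (0.683 to 0.740), 0.762 (0.731 to 0.793) and 0.815 (0.782 to 0.848) for the highest. The median score was 140 proximally and 152 distally, and it was higher distally on 15 autosomes. The 4 with a lower distal score were chromosome 4 (146 to 121), chromosome 8 (157 to 144), chromosome 15 (147 to 144) and chromosome 11 (144 to 142). Chromosomes 4, 11 and 15 were among the steepest falls in number. Chromosome 5 was another, and its score was higher distally (145 to 149). From proximal to distal the median score was higher and the median width lower on 9 autosomes, both were higher on 6 and both were lower on 4. Wide peaks mostly had high scores: of the proximal peaks of 2 kb or wider, 4956 scored at or above the median and 1174 below it. Among peaks of 2 kb or wider with a score below the median the ratio was 0.566 (0.514 to 0.624), with lower distal density on 18 autosomes. Among peaks under 1 kb with a score at or above it the ratio was 0.854 (0.808 to 0.903), with lower distal density on 14. Wide peaks of high score had 0.729 (0.699 to 0.762), and narrow peaks of low score 0.733 (0.710 to 0.758).

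Neighbouring peaks lay farther apart in the distal part. The median gap from the end of a peak to the start of the next was 16.7 kb (16.3 to 17.1) proximally, 17.2 kb (16.8 to 17.5) in the middle and 21.0 kb (20.5 to 21.6) distally. Gaps of less than 10 kb made up 36.2% of proximal and 31.3% of distal gaps. Gaps of 200 kb or more made up 1.25% (279) and 3.23% (533). Gaps of 500 kb or more numbered 15 and 43. The longest was in the proximal part all the same, 7.02 Mb on chromosome 7, and the longest distal gap was 1.07 Mb.

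A few windows departed from the rest by peak width. In 6 windows the median width was at least 1500 bp, and they lay in every part of a chromosome. Of these, 3 were proximal (5 to 10 Mb of chromosome 7, and 5 to 10 Mb and 40 to 45 Mb of chromosome 14), 1 was middle (65 to 70 Mb of chromosome 13) and 2 were distal (145 to 150 Mb of chromosome 4 and 175 to 180 Mb of chromosome 2). The widest median was 2093 bp (1637 to 3011) at 5 to 10 Mb of chromosome 7, where 79 of 156 peaks (50.6%) were at least 2 kb wide, against 26.9% of autosomal peaks. It was followed by 1930 bp (1276 to 2514) at 5 to 10 Mb of chromosome 14 and 1872 bp (1472 to 2540) at 145 to 150 Mb of chromosome 4. Peaks of the 5.75 kb class made up from 4.76% to 16.8% of these windows, against 10.4% of autosomal peaks.

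**Figure D5:**
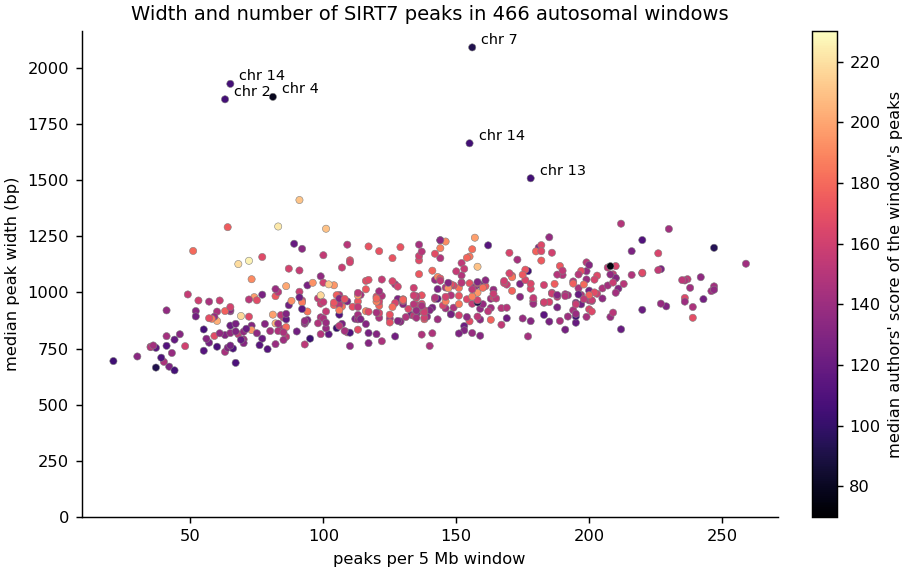
Median peak width against the number of SIRT7 peaks in the 466 complete autosomal windows that held a peak, coloured by the median authors' score. Most windows lie between 800 and 1200 bp, and the 6 windows of at least 1500 bp, labelled by chromosome, have median scores of 79.3 to 106.

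The 6 wide windows had low scores. Their median scores ran from 79.3 to 106, where the median over windows was 149. At 145 to 150 Mb of chromosome 4 the median score was 79.3 (71.7 to 88.8), the second lowest of all. The lowest was 74.0 (66.4 to 83.2) at 20 to 25 Mb of chromosome 12, with 208 peaks and an ordinary median width of 1117 bp. That window held 8 of the 74 autosomal peaks in recurring pairs, neighbours whose 2 widths and gap all recur exactly elsewhere in the list. Such peaks numbered 26 at 20 to 25 Mb of chromosome 7, with a median score of 94.1. They also numbered 8 at 30 to 35 Mb of chromosome 4, where the median score was 138. Of the wide windows, 145 to 150 Mb of chromosome 4 held 4 and the other 5 held none. Whether reads that map to several places bear on these windows was not tested.

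The 3 narrowest windows were all in the last part of chromosome 4. The median width was 653 bp (587 to 781) at 150 to 155 Mb, 665 bp (576 to 780) at 130 to 135 Mb and 669 bp (590 to 842) at 125 to 130 Mb. These windows held 44, 37 and 42 peaks, and 0%, 0% and 2.38% of them were in the 5.75 kb class. The 10 distal windows of chromosome 4 in order held 91, 199, 87, 135, 42, 37, 21, 106, 81 and 44 peaks. The wide-peak window at 145 to 150 Mb, with the widest median after those of chromosomes 7 and 14, lies next to the narrowest.

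On the X chromosome of the same list the fall was not found. Its 32 complete windows held 218 ± 50.8 peaks (97 to 299), with a median of 226 that only 19 of the 467 autosomal windows exceeded. The distal to proximal ratio was 1.13 (1.06 to 1.20), from 38.1 ± 11.1 to 42.9 ± 9.08 per Mb, and the middle part was denser than both at 48.6 ± 8.18. The median width was 991 bp (934 to 1073) proximally and 943 bp (901 to 994) distally, with overlapping intervals. The difference was -47.5 bp, beside -42.5 bp for the pooled autosomes. Its outer 1 Mb at the far end held 42 peaks against 32 per Mb beside it. With 1 list and 1 chromosome the difference from the autosomes was not tested. Chromosomes 14 and 16 also had ratios above 1. Chromosome 17 had 1.06, for which no direction is given.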

How the data were processed

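Each row of the deposited list is a SIRT7 peak with its position and score, both from the authors. Tools named, with no settings, in the submitters' processing notes are MACS 1.4.2, SAMtools 0.1.19, Bowtie, deepTools 2.4.2, Trimmomatic 0.36 and FastQC 0.11.3, and the mouse build is mm9. Which control was used, how multiply mapping reads were treated and whether replicates were pooled is not given in the sources used here. Strain 129s2 differs from the strain of the reference, which can alter mapping.

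Peaks on chromosomes 1 to 19 were assigned by midpoint to windows of 5 Mb, and a peak's bases were counted whole in its window. Intervals of density ratios are exact 95% intervals for counting error, and those of medians are binomial order-statistic intervals. The values after ± are SDs. Named windows are the 3 highest and 3 lowest by number, coverage and median width. Named autosomes are the 3 highest and lowest by each distal to proximal contrast. Boundaries, neighbour changes, score and width classes, the outer 1 Mb, gaps and wide windows were added after the values were seen. The members and contrasts were chosen with earlier results of these data known. The distal to proximal ratio was tested on simulated lists of independently placed peaks with known ratios. Merging and medians were tested on small lists. The simulated lists lack the uneven spread of the real peaks, so they do not test the counting intervals under it. Boundaries, the outer 1 Mb and gaps were not simulated. Alternatives changed window size and start, score threshold, merging, width classes and the parts compared. Genes, base composition and repeats were not analysed here, since no genome or annotation of build mm9 was used. The software was matplotlib 3.10.9, scipy 1.17.1, pandas 2.3.3 and numpy 2.4.6 under Python 3.11.15.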

Additional observations from a re-analysis of the deposited data

How the results depend on the processing

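The pooled distal to proximal ratio was below 1 under each of the 32 alternatives run, from 0.605 to 0.825. It was 0.770 with scores of at least 100, 0.788 with scores from the median of the list upward, 0.722 with incomplete windows included, 0.825 with chromosomes divided once in the middle, 0.605 between the 4 outermost windows a side and 0.717 as the median over autosomes. Leaving out single autosomes gave 0.705 (without chromosome 14) to 0.763 (without chromosome 4), with 0.758 without chromosome 5 and 0.721 without chromosome 16. Of 228 values of single autosomes, 186 stayed inside the counting interval of that autosome's main ratio. Among the rest, 2 reversed a ratio whose interval lay on 1 side of 1. These were chromosome 7, to 1.06 with scores at or above the median, and chromosome 13, to 1.13 when divided in the middle. The covered difference was -1.23 and -1.001 percentage points under the 2 score thresholds, -1.05 when divided in the middle and -2.67 between the outermost windows. The width difference was -96 and -174.5 bp under the score thresholds, -87 bp with peaks closer than 1 kb merged, -20 bp without the peaks within 0.5 kb of 5.75 kb, -14 bp when divided in the middle and -80 bp between the outermost windows. The number of autosomes with a lower distal width ran from 10 (divided in the middle) to 16 (both score thresholds and the outermost windows), beside 13. Settings that keep fewer or joined peaks change levels by construction. A window held 90.1, 68.3 and 122 peaks (scores of at least 100, at or above the median, merged), with median widths of 1333, 1678 and 1076 bp. These widths are medians over windows of the window medians, which gave 964 bp with all peaks. The same measure was 954 bp without the widest 1% and 868 bp without the 5.75 kb class. Coverage was 4.18% and 3.58% under the score thresholds and 4.83% without the widest 1%. The far-tip ratio, whose alternatives were all chosen after seeing the data, was 1.59 with scores at or above the median, 2.25 for the outer 0.5 Mb and 1.69 for the outer 2 Mb, and 1.78 to 1.93 with single autosomes left out. Leaving out the 6 windows that touch a stretch of 2 Mb or more with no peak, also chosen after seeing the data, kept each pooled direction. The alternatives on gene content were not run. No paired analysis was possible because only 1 list was used for the group. Unknown read depth limits each statement on number and width, and a window with few peaks is not shown to lack SIRT7.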
